A study of Bos grunniens with 18 samples.

Results

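The genes of the m6A methyltransferase complex, which place N6-methyladenosine (m6A) on RNA, were examined together with 2 further m6A enzymes in the epididymis of the yak (Bos grunniens). Members were chosen by gene symbol: METTL3, METTL14, WTAP, Virma, ZC3H13, CBLL1, RBM15 and RBM15B for the complex, and METTL16 and METTL5 outside it. Of these 10 symbols, 9 matched a row of the expression table, with 12 gene identifiers of 18467 in all. No row carried the symbol METTL3, which was not analysed here. WTAP matched 4 identifiers, called entries 1 to 4 below.

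The duct was divided into its tail (cauda), body (corpus) and head (caput), taken from 6 healthy male yaks aged 4 years. The 18 libraries comprised 3 RIP libraries, enriched with an antibody against m6A, and 3 unenriched input libraries from each of the cauda, corpus and caput. The labels give no treatment or genetic change, and libraries are not tied to animals there. Each sample was tissue of 1 region, separated by anatomy. The files hold 1 list of candidate m6A adenosines per region, 3 tables in which the authors compared a pair of regions, and FPKM values (fragments scaled by transcript length and library size) of the 9 input libraries. The FPKM columns carry codes beginning with EA, EB or EC that match no region in the labels. They are therefore given as 9 input columns, with no region and no test between regions. Columns EB1_3 and EB1_4 share the code EB1, and if they came from 1 animal the 9 columns would be fewer than 9 independent samples, which the labels do not settle. As the comparison tables lack values of single libraries, a peak's fold comes without an error between replicates.

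METTL3 is the catalytic subunit of the complex, and METTL14 is the partner that holds its RNA substrate. WTAP anchors this pair in nuclear speckles, and Virma, the largest adaptor, directs methylation towards the ends of messages. ZC3H13 helps to keep the complex in the nucleus, CBLL1 is a RING-type ubiquitin ligase bound to the adaptors, and RBM15 and RBM15B are RNA-binding adaptors. METTL16 methylates a spliceosomal small nuclear RNA and hairpins of the MAT2A message, and METTL5 methylates the RNA of the small ribosomal subunit. In the epididymis, sperm leaving the testis acquire motility along the duct and are stored in its tail. An m6A peak on one of these transcripts marks methylation of the message itself and not the activity of the protein.

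The input columns held between 23606925 and 29794794 fragments, recovered from the steps of the FPKM values. The epithelial markers Lcn5, AQP9 and ELSPBP1 were above 0 in all 9 columns. Others of the principal cell list had low medians, 0.32 FPKM for DEFB119 and 0.46 FPKM for ADAM28. Basal cell markers summed to between 60.5 and 111 FPKM, and clear and narrow cell markers to between 0.65 and 13.0 FPKM. Lcn5, a secreted lipocalin of principal cells, lay between 1951 and 113865 FPKM. The marker list of principal cells, with 10 of 10 symbols matched, summed to between 3017 and 127084 FPKM, and of its genes CST8 alone was listed at 0 in any column. Smooth muscle markers, with 4 of 4 symbols matched, summed to between 2889 and 5773 FPKM. Sperm and spermatid markers, with 5 of 6 symbols matched, summed to between 5.45 FPKM in column EB1_3 and 2298 FPKM in column EC2_2. Of the erythrocyte markers 1 of 3 matched, ALAS2, which was listed at 0 in most columns and reached 0.022 FPKM. The columns EB1_3 and EC2_2 were the least alike of all pairs, with a Pearson r of 0.898 over log2(FPKM + 1) of all genes.

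The first question was at what level these genes were expressed. WTAP entry 1 and RBM15B stood above the other members, CBLL1 and RBM15 were the lowest, and the remaining members lay close together. FPKM is a level per transcript length, so it can be set between genes. The gene in the middle of the whole table had a median of 4.01 FPKM, and the middle one of the 12947 genes with a mean of at least 1 FPKM had 9.53 FPKM. In these bulk tissues, fewer cells of a type and less RNA per cell cannot be told apart.

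METTL14, the substrate-binding partner, had 7.11, 5.40 and 6.05 FPKM in the EA columns, 7.83, 7.26 and 6.12 FPKM in the EB columns, and 6.17, 5.75 and 6.50 FPKM in the EC columns. The code sets overlapped throughout. Its highest value was 1.45 times its lowest, against 2.49 times for the middle one of the 12947 genes, which placed METTL14 at percentile 5.27 of that spread. The depth behind these values was 300 to 409 fragments per column. The other members had larger ratios, from 1.47 for WTAP entry 3 to 5.15 for RBM15.

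WTAP entry 1 (ENSBGRG00000026563, chromosome 10) had 56.8, 51.1 and 54.1 FPKM in the EA columns, 77.0, 59.1 and 54.6 FPKM in the EB columns, and 76.0, 73.9 and 68.2 FPKM in the EC columns. Its median of 59.1 FPKM lay at percentile 91.0 of all genes. It exceeded RBM15B, the next member, in 9 of 9 columns without overlap of their ranges. Entry 2 (ENSBGRG00000026557), which lies beside entry 1 on the same strand, had a median of 10.7 FPKM, and its highest value was 1.53 times its lowest. Entry 3 (ENSBGRG00000015570), on chromosome 24, had a median of 9.66 FPKM and a range from 7.76 to 11.4 FPKM. Entry 4 (ENSBGRG00000006404) was listed at 0 in 8 columns and at 0.088 FPKM in column EB1_4. The sources used here do not say how reads shared by such entries were assigned, so the split of WTAP among its entries is uncertain. Whether entries 1 and 2 are separate copies or parts of 1 gene was not analysed here.

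Virma, the largest adaptor, had 13.3, 11.8 and 15.2 FPKM in the EA columns, 12.3, 10.9 and 9.70 FPKM in the EB columns, and 11.6, 7.62 and 8.71 FPKM in the EC columns. The EA columns were the higher and the EC columns the lower ones, with EC2_2 close to EA3_1, and the EB values overlapped both sets. ZC3H13, the nuclear retention factor, had a median of 11.4 FPKM and a range from 7.63 FPKM in EC3_2 to 14.6 FPKM in EB1_3. The medians of Virma (11.6 FPKM) and ZC3H13 differed little, and Virma was the higher of the pair in 3 of 9 columns, so their order is not settled.

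RBM15B and RBM15, close relatives among the RNA-binding adaptors, differed in both level and spread. RBM15B had 29.7, 27.2 and 27.2 FPKM in the EA columns, 25.8, 22.9 and 23.0 FPKM in the EB columns, and 40.0, 27.4 and 30.0 FPKM in the EC columns. RBM15 had 5.25, 2.84 and 4.82 FPKM in the EA columns, 9.46, 3.20 and 3.64 FPKM in the EB columns, and 5.79, 1.84 and 3.12 FPKM in the EC columns. The median of RBM15B was 27.2 FPKM (percentile 82.6 of all genes, and 75.1 of the 12947 genes with a mean of at least 1 FPKM), and that of RBM15 was 3.64 FPKM (percentile 48.4 of all genes, and 26.4 of the 12947). The highest value of RBM15 was 5.15 times its lowest, the widest spread of the members, at percentile 80.3 of the 12947 genes. The lowest RBM15 value rested on 155 fragments, with an exact Poisson 95% interval from 1.56 to 2.15 FPKM, and the highest on 773 fragments, with an interval from 8.80 to 10.1 FPKM. These intervals cover counting error only.

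CBLL1, the ubiquitin ligase, was the lowest member by median, with 3.02, 1.34 and 2.56 FPKM in the EA columns, 4.53, 2.73 and 3.28 FPKM in the EB columns, and 4.43, 2.27 and 4.35 FPKM in the EC columns. METTL5, the ribosomal RNA enzyme, had 9.05, 5.92 and 8.54 FPKM in the EA columns, 11.3, 9.31 and 10.5 FPKM in the EB columns, and 10.7, 9.19 and 10.6 FPKM in the EC columns. METTL16, the small nuclear RNA enzyme, had 5.66, 6.89 and 7.70 FPKM in the EA columns, 8.88, 6.21 and 6.09 FPKM in the EB columns, and 10.5, 7.92 and 9.31 FPKM in the EC columns. Their medians were 3.02, 9.31 and 7.70 FPKM. METTL5 was higher than METTL14, whose median was 6.17 FPKM, in 9 of 9 columns, and in 8 of them it lay above the highest METTL14 value. METTL16 was higher than METTL14 in 6 of 9 columns. From Virma down, the range of each member overlapped that of its neighbour in the order of medians.

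**Figure D1:**
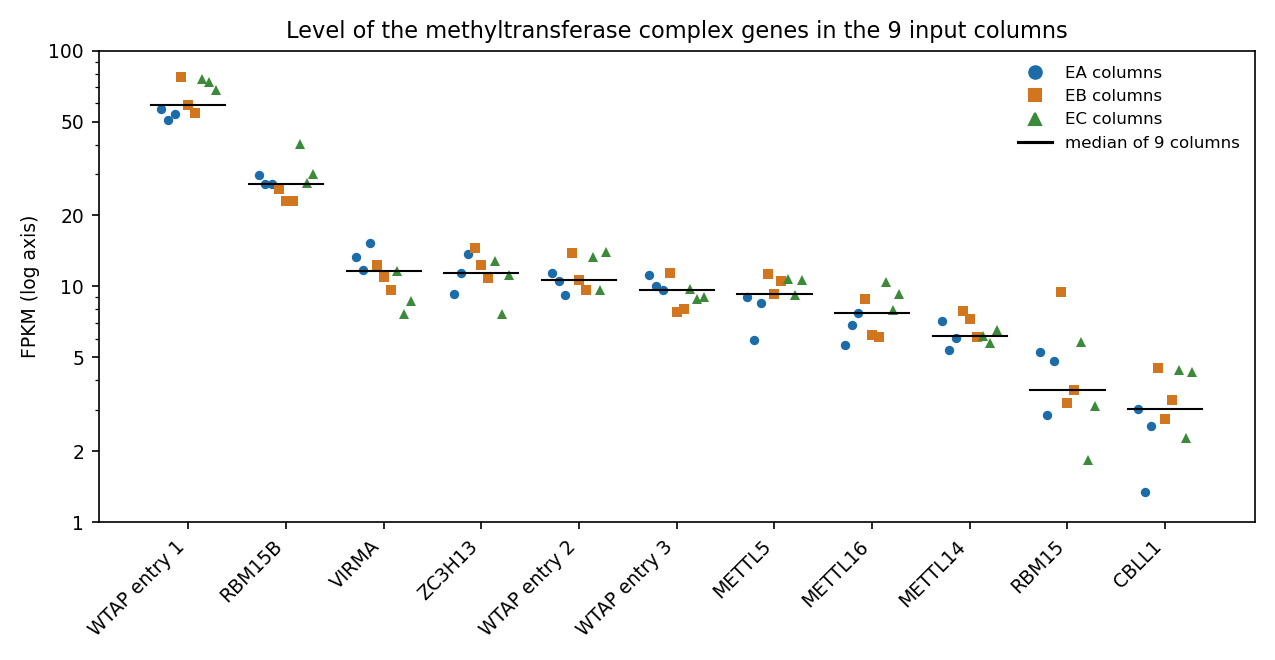
FPKM (log axis) of 11 member entries in the 9 input columns, ordered by their median. Points are single columns, coloured by code set in the order EA, EB, EC, and the black line is the median of the 9 columns. WTAP entry 1 and RBM15B lie above the rest, with no overlap from one to the next, and RBM15 shows the widest spread, from 1.84 to 9.46 FPKM.

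Column EB1_3 held the highest value of 7 of the 11 member entries above 0 in more than 1 column, while 18.4% of the 12947 genes were highest there. Column EA3_1 held the lowest value of 4 entries, while 14.5% of genes were lowest there. EB1_3 was also the column with the lowest sum of sperm and spermatid markers, and the part of cell makeup in the member levels was not tested. Across the 9 columns, 47 of the 55 pairs of member entries had a positive Pearson r of log2(FPKM + 1), with a median of 0.36. These r describe 9 columns that share a tissue and a normalization. The highest was that of CBLL1 with METTL5 (Pearson r 0.93, Spearman rho 0.92), which stayed between 0.88 and 0.96 when any 1 column was left out. For 15 of the 55 pairs the sign of r changed when 1 column was left out. The genes whose pattern was most like that of METTL14 among 12669 genes compared were CSE1L (r 0.94), CGGBP1 (r 0.92) and MFSD10 (r 0.91). They are the highest of many r over only 9 columns, and whether such values exceed those of chance was not tested.

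The second question was whether methylation of these transcripts differed between regions. One peak of 1 member, Virma, passed the authors' adjusted threshold, in cauda over caput, and no other member peak did so in any comparison. In the authors' deposited table of corpus over caput, 0 of 20 member peaks had an adjusted p under 0.05, where 2.98% of all 14061 peaks did. In that of cauda over caput it was 1 of 17, where 2.27% of 13826 peaks did, and in that of cauda over corpus 0 of 19, where 1.96% of 13917 peaks did. With p under 0.05 before adjustment, the authors' deposited tables gave 2, 4 and 1 member peaks in the same order, where 16.4%, 17.2% and 16.4% of all peaks passed. At an adjusted p under 0.1 they numbered 0, 2 and 0 in the authors' deposited tables, where 4.53%, 4.37% and 3.46% of all peaks passed. Counts of 0 or 1 among 17 to 20 peaks lie near those background shares and are no result about the members as a set.

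The middle of the folds was close to 0 throughout. The median log2 fold of the member peaks in the authors' deposited tables was 0.13 in corpus over caput, against -0.02 over all peaks. It was 0.09 in cauda over caput, against 0.04 over all peaks, and -0.03 in cauda over corpus, against 0.05 over all peaks, in the authors' deposited tables. By sign, 15 of 20 member peaks were positive in corpus over caput, 9 of 17 in cauda over caput and 7 of 19 in cauda over corpus, while 47.5%, 54.9% and 55.9% of all peaks were positive in the authors' deposited tables. Each pair of comparisons shares the libraries of 1 region, so these counts are not independent of each other. The sources used here do not say whether the folds were taken relative to input.

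**Figure D2:**
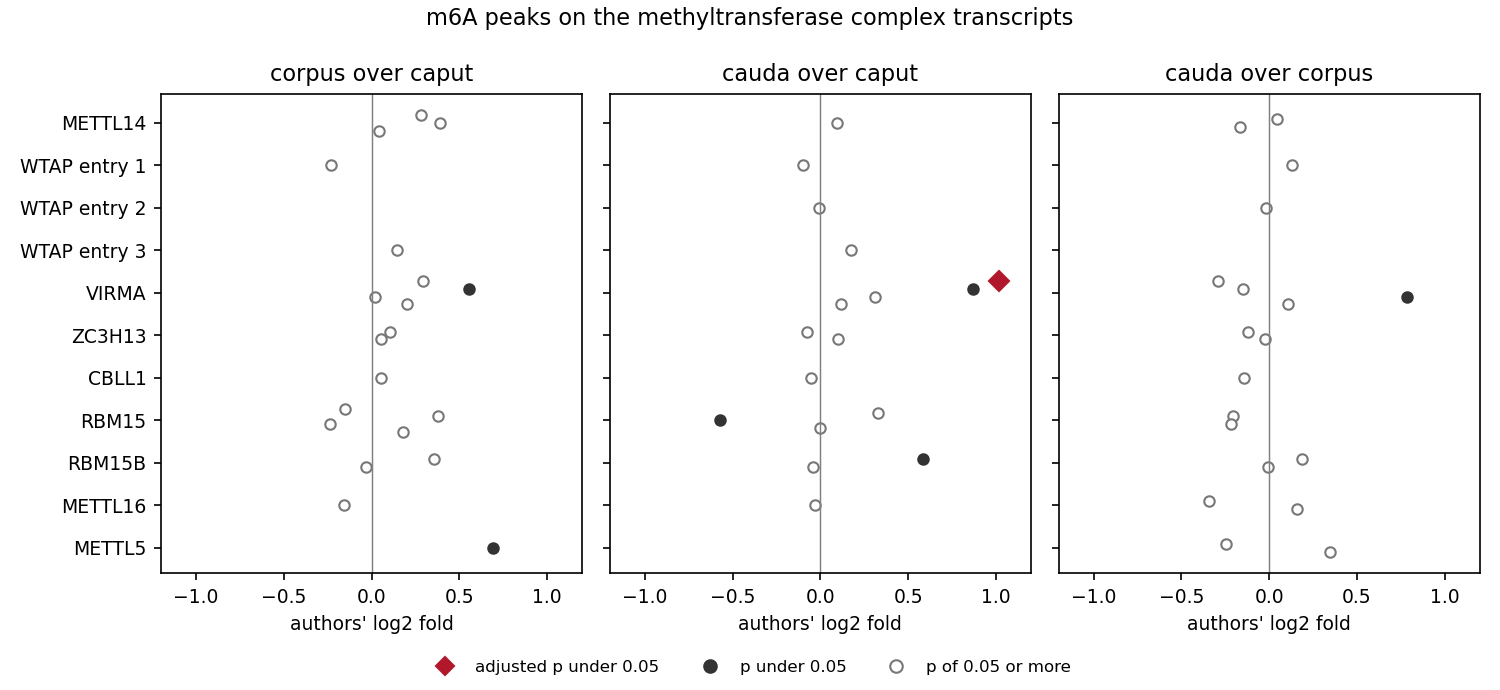
The authors' log2 fold of every member peak in each of the 3 comparisons, with 1 point per peak and several points where a gene has several peaks. Filled circles have an unadjusted p under 0.05 and the red diamond an adjusted p under 0.05. Most points lie within 0.5 of 0 on the log2 scale, and the red diamond is the Virma peak at 1.02 in cauda over caput.

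Virma carried the largest log2 folds of the members, and they sat at neighbouring but separate peaks. Coordinates are those of the files, whose genome build the sources used here do not name, and whether a peak lies in coding sequence or a UTR was not analysed here. The called peak, chr18:62075381-62075679 on the plus strand, had a log2 fold of 1.02 in cauda over caput in the authors' deposited table (adjusted p = 0.043). An overlapping and longer peak, chr18:62074885-62075728, had a log2 fold of 0.56 in corpus over caput in the authors' deposited table (p = 0.014, adjusted p = 0.20). In cauda over corpus the corresponding peak, chr18:62074885-62075679, was at -0.15 in the authors' deposited table (adjusted p = 0.78). By these folds the cauda and corpus were close at this place and both above the caput, although only the cauda over caput value passed the adjusted threshold.

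The candidate lists show the same stretch from another side. Each list gives adenosines inside the peaks of a region, with a prediction score and a class from low to very high confidence. The score comes out the same for a position in every region that lists it, so it ranks positions and does not measure how strongly a region was methylated. The Virma peak spanned 62074935 to 62075679 in the cauda and 62074885 to 62075728 in the corpus, but ended at 62075282 in the caput. Within the called stretch the cauda and corpus lists each held 8 candidates, 2 of them classed as m6A sites, and the caput list held 0. The classed positions were 62075495, of very high confidence (score 0.685), and 62075470, of high confidence (score 0.622).

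The next Virma peak downstream gave another pattern of folds. Peak chr18:62080144-62080342 had a log2 fold of 0.87 in cauda over caput in the authors' deposited table (p = 0.0017, adjusted p = 0.068). The overlapping peak chr18:62080144-62080293 had a log2 fold of 0.79 in cauda over corpus (p = 0.0051, adjusted p = 0.14) and of 0.02 in corpus over caput (adjusted p = 0.85) in the authors' deposited tables. Here the corpus and caput values were close and the cauda value was the higher, and neither cauda comparison passed the adjusted threshold. All 3 regions listed the same 6 candidates in it, 5 of them classed as m6A sites. Position 62080203, with a score of 0.749, was the highest-scoring candidate of all members.

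The remaining Virma peaks gave smaller values. Peak chr18:62090364-62090860 had a log2 fold of 0.31 in cauda over caput (adjusted p = 0.58) and of 0.20 in corpus over caput (adjusted p = 0.79) in the authors' deposited tables. It held 7 classed positions in the cauda, 7 in the corpus and 6 in the caput, and position 62090552 scored 0.748. The first peak, chr18:62064779-62071630, spans introns and had a log2 fold of -0.29 in cauda over corpus in the authors' deposited table (adjusted p = 0.46). The overlapping peak chr18:62064779-62071581 was at 0.29 in corpus over caput in the authors' deposited table (adjusted p = 0.47). The last peak, chr18:62106130-62106878, was at 0.12 in cauda over caput and 0.11 in cauda over corpus in the authors' deposited tables, and none of its candidates was classed as an m6A site in any region.

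**Figure D3:**
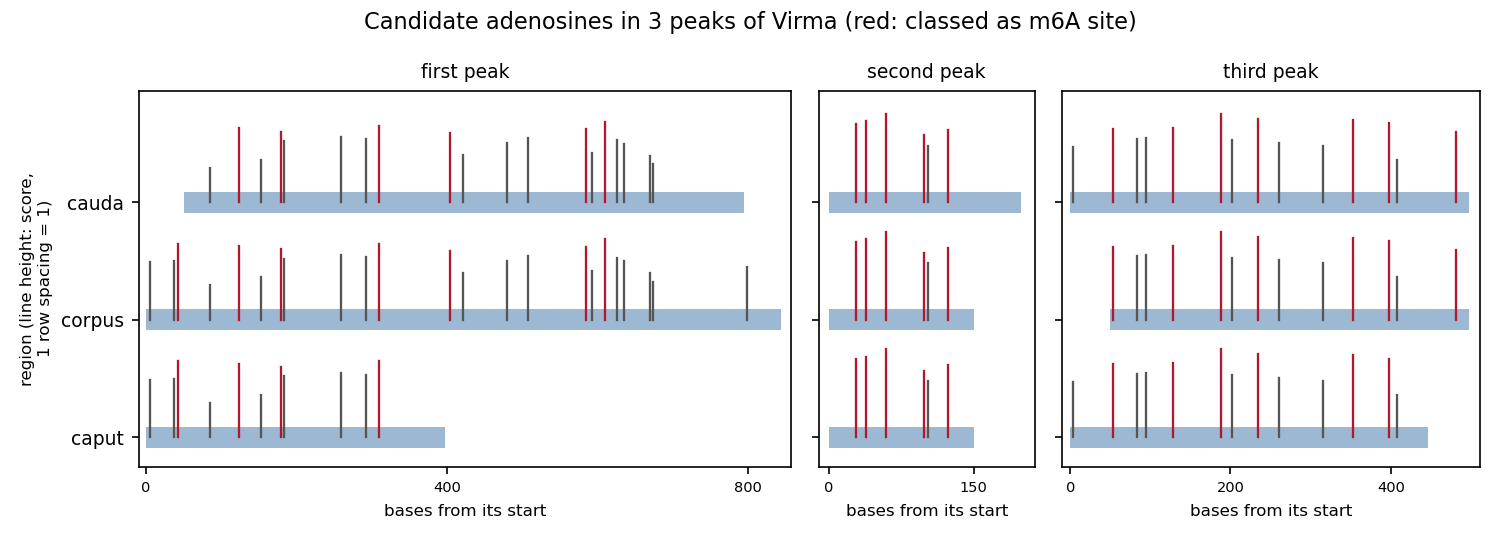
Candidate adenosines in the 3 Virma peaks without introns, plotted as bases from each peak's start, with the cauda above the corpus and the caput. Blue bars are the peaks listed in each region, line height is the prediction score, and red lines are positions classed as m6A sites. In the first peak the caput bar stops short of the last 3 red positions that the cauda and corpus share, and the second peak holds the same 5 red positions in all 3 regions.

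METTL14, WTAP, ZC3H13 and CBLL1 had no peak with an unadjusted p under 0.05 in any comparison. METTL14 had 3 peaks in corpus over caput with log2 folds of 0.28, 0.39 and 0.04 in the authors' deposited table (adjusted p between 0.69 and 0.89). In cauda over caput its single peak, chr6:121538158-121551862, was at 0.09 in the authors' deposited table (adjusted p = 0.95). Of its 16 candidate positions, taken inside the compared peaks, 62.5% were listed in all 3 regions. The share over all positions, which had no such limit, was 45.8%. The 3 positions listed in 1 region, 2 of them classed as m6A sites, were all in the cauda, while 31.9% of all positions were listed in 1 region. They were 121542029, 121542056 and 121542075, just beyond 121542015, where a peak listed in the corpus and caput ended. Position 121551370, with a score of 0.719, was its best candidate and was listed in all 3 regions.

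WTAP entry 1 had peaks from -0.23 in corpus over caput to 0.13 in cauda over corpus on the log2 scale in the authors' deposited tables. It was the highest-expressed member and held 1 classed position in each region, 104588982, of moderate confidence (score 0.591). The median over all genes with candidates was also 1 classed position in each region. Entry 3 had a lower level and carried more: its peak chr24:4537963-4538359 held 15 candidates, 5 of them classed as m6A sites, in the cauda, the corpus and the caput alike. Its log2 fold was 0.18 in cauda over caput and 0.15 in corpus over caput in the authors' deposited tables (adjusted p of 0.70 and 0.82). Entry 2 held 4 candidates in each region and no classed position.

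ZC3H13 held the most classed positions of the members. Of its 111 candidate positions 31 were classed as m6A sites, and all 31 were listed in the cauda, the corpus and the caput. By the number of classed positions it lay at percentile 99.9 of the genes with candidates in each region. By the number of candidates, classed or not, it lay nearly as high, at percentile 99.7 in the cauda and 99.8 in the corpus and caput. Its peak chr15:67689672-67754627 had an exonic length of 4431 bases in corpus over caput, against a median of 251 bases over all peaks, and 3 of 14061 peaks were at least as long in the authors' deposited table. The log2 fold of that peak was 0.05 in corpus over caput and -0.03 in cauda over corpus in the authors' deposited tables (adjusted p of 0.82 and 0.81). Between 67740784 and 67741119, a stretch of 336 bases, 11 classed positions fell within one window of 400 bases. Windows with as many began at 60 of all 26745 classed positions of the 3 lists (0.224%).

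CBLL1 had 1 peak, chr4:78286325-78287124 on the minus strand, with log2 folds of 0.05 in corpus over caput, -0.06 in cauda over caput and -0.14 in cauda over corpus in the authors' deposited tables. The adjusted p was 0.81, 0.97 and 0.89 in the authors' deposited tables. Its best candidate, position 78286935 (score 0.621), was listed in the cauda and corpus and not in the caput, where the peak ended at 78286924.

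RBM15 was the member whose fold at an unadjusted p under 0.05 was negative. Peak chr3:39432330-39432728 had a log2 fold of -0.57 in cauda over caput in the authors' deposited table (p = 0.039, adjusted p = 0.32). The same peak was at -0.24 in corpus over caput in the authors' deposited table (adjusted p = 0.996). The cauda list held 1 candidate in this stretch, the corpus list 9 and the caput list 10, and the only classed position, 39432376 (score 0.639), was listed in all 3. Just upstream, position 39432124 (score 0.657) was listed in the corpus alone. Its stretch had log2 folds of 0.33 in cauda over caput and 0.38 in corpus over caput in the authors' deposited tables (adjusted p of 0.90 and 0.88). The long peak further downstream, chr3:39432878-39434272, was at -0.003 in cauda over caput in the authors' deposited table, and the same 10 classed positions were listed there in all 3 regions.

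**Figure D4:**
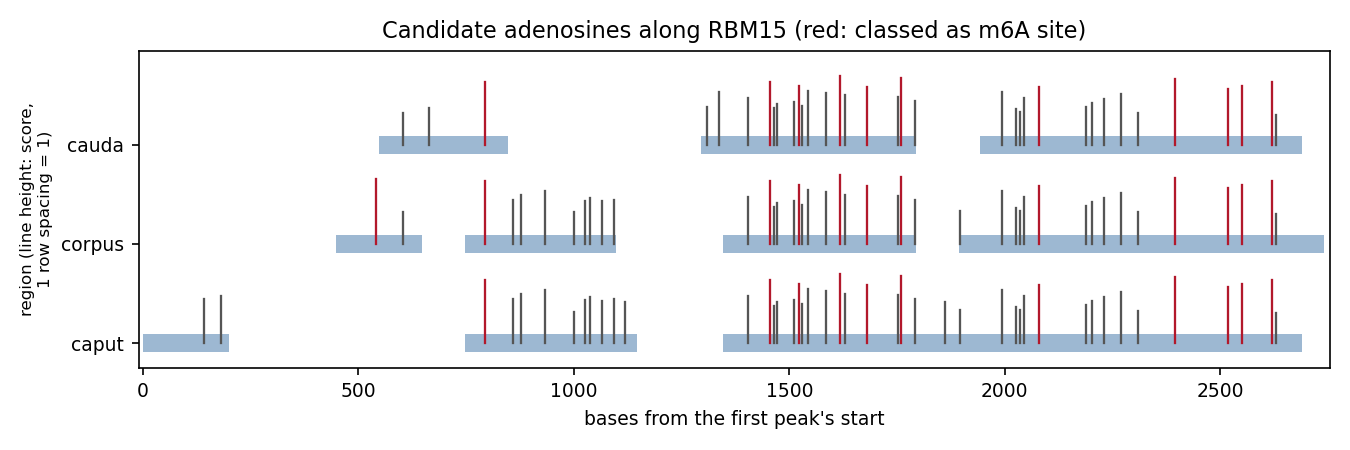
Candidate adenosines along RBM15, plotted as bases from the start of its first peak, with the cauda above the corpus and the caput. Blue bars are the peaks listed in each region, line height is the prediction score, and red lines are positions classed as m6A sites. The peaks on the left differ between regions, and the 10 red positions on the right are the same in all 3.

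RBM15B, the higher-expressed relative, had a small upstream peak, chr22:13040997-13041147, with log2 folds of 0.58 in cauda over caput (p = 0.020, adjusted p = 0.24), 0.36 in corpus over caput and 0.19 in cauda over corpus in the authors' deposited tables. Only the cauda list held a candidate there, 1 position that was not classed as an m6A site. Its main peak, chr22:13042447-13044196, had log2 folds between -0.04 and -0.01 in the authors' deposited tables. It held 40 candidates, 7 of them classed, in each region.

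METTL5, outside the complex, had a log2 fold of 0.69 at chr2:120950139-120956124 in corpus over caput in the authors' deposited table (p = 0.015, adjusted p = 0.21). It was tested at no peak in cauda over caput. In cauda over corpus an overlapping peak was at -0.24 and a separate one at 0.35 in the authors' deposited table (adjusted p of 0.82 and 0.46). Its candidates appeared only in the corpus list, 2 positions of which the better scored 0.419, and neither was classed as an m6A site.

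METTL16, also outside the complex, had no peak with p under 0.05. Of its candidate positions 47.4% were listed in all 3 regions, near the 45.8% of positions in general, which were not limited to compared peaks. Of its 38 candidate positions, 16 were missing from the cauda list alone, 4 of them classed as m6A sites and among these position 45185696, of very high confidence (score 0.688). Among all positions 31.9% were listed in 1 region, and the share missing from the cauda list alone was not computed. The count is therefore no result about METTL16 beside other genes. The cauda peak began at 45199577, where the corpus and caput peaks began at 45178690 and 45178739. The peak chr19:45178739-45199626 had an exonic length of 150 bases. Its log2 fold was -0.34 in cauda over corpus in the authors' deposited table (p = 0.59, adjusted p = 0.91). The 4 classed positions missing from the cauda lie between 45185696 and 45185871, a stretch of 176 bases. That is longer than the 150 exonic bases, so the fold cannot cover the whole of it. Which of the missing positions lie in those exonic bases was not analysed here. Over the whole METTL16 peak the log2 fold was -0.03 in cauda over caput and -0.15 in corpus over caput in the authors' deposited tables.

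Taken over all members, a larger share of candidates was classed as m6A sites than of candidates in general. In the cauda 85 of 306 candidates were classed (27.8%, exact binomial 95% interval 22.8 to 33.2), in the corpus 90 of 331 (27.2%, 22.5 to 32.3) and in the caput 84 of 316 (26.6%, 21.8 to 31.8). Over all candidates the share was 19.1% in the cauda, 19.3% in the corpus and 19.1% in the caput. The regions list many of the same positions and ZC3H13 and Virma supply most of those classed, so these shares are a description, and their intervals cover counting error only. Of the 349 member positions 274 (78.5%) were listed in all 3 regions, 106 of them in ZC3H13 and 40 in RBM15B. Over all 143390 positions the share was 45.8%. Member candidates were taken only inside the peaks the authors compared, and those over all genes had no such limit. The shares of members and of all candidates are therefore not like for like. Of the 92 classed positions 16 were of very high confidence: 6 in Virma, 5 in ZC3H13, 2 in RBM15 and 1 each in METTL14, METTL16 and WTAP entry 3. Of the 18 member peaks of the cauda list 17 overlapped one of the corpus and 17 one of the caput, and of the 21 of the corpus list 19 overlapped one of the caput. Over all listed peaks 76.0% of those of the cauda overlapped one of the corpus, 77.6% one of the caput, and 79.1% of those of the corpus one of the caput. Member peaks were longer than peaks in general, with a median exonic length of 385 bases in corpus over caput, against 251 bases over all peaks, in the authors' deposited table.

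**Figure D5:**
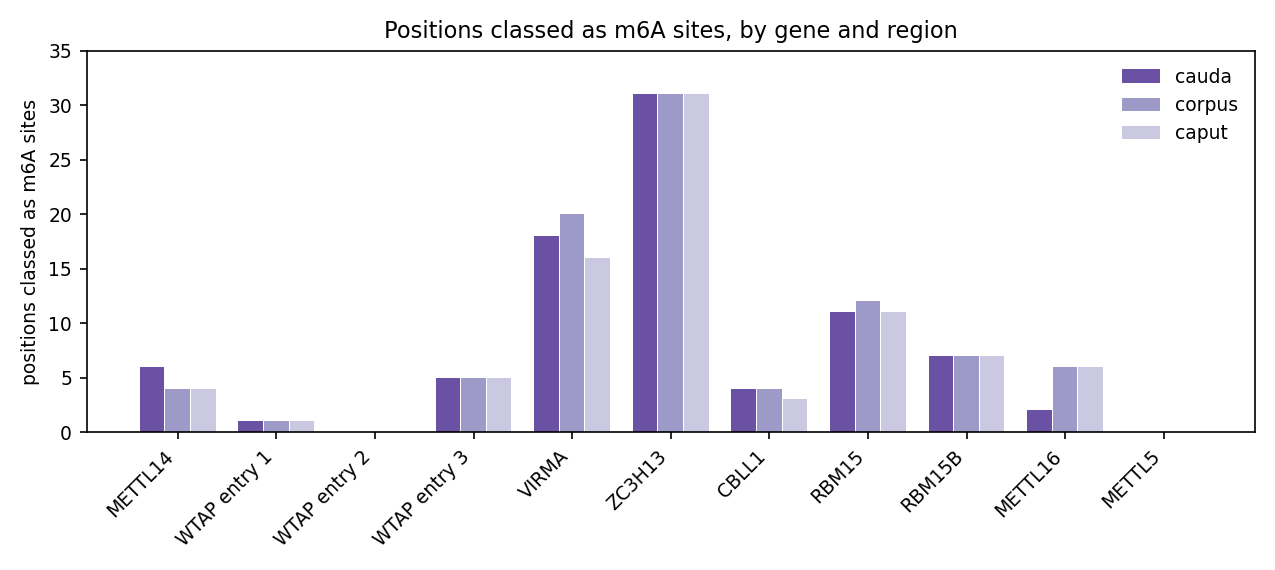
Number of positions classed as m6A sites in each member entry, with bars for the cauda, corpus and caput from left to right. ZC3H13 has 31 in every region, Virma 18 in the cauda, 20 in the corpus and 16 in the caput, and METTL16 has 2 in the cauda and 6 in each of the corpus and caput.

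The genes that remove, read or supply the mark were set beside the writers from fixed lists. Of the erasers FTO and ALKBH5, 0 of 4 peaks were called in corpus over caput, 0 of 3 in cauda over caput and 0 of 2 in cauda over corpus in the authors' deposited tables. Of the readers, which bind the mark, 0 of 25, 1 of 31 and 1 of 29 peaks were called in the same comparisons in the authors' deposited tables. The shares called over all peaks were 2.98%, 2.27% and 1.96% in the authors' deposited tables, and the list counts lie near them and are no result about the lists. In the authors' deposited tables the peak called in cauda over caput was on Fxr1 (log2 fold 0.76, adjusted p = 0.026), and the peak called in cauda over corpus was on FXR2 (log2 fold -0.50, adjusted p = 0.020). Among other enzymes that add or remove RNA methylation, with their cofactors, 0 of 9, 0 of 12 and 0 of 12 peaks were called in the authors' deposited tables. Among genes of the methyl donor cycle it was 0 of 9, 0 of 10 and 0 of 9 in the authors' deposited tables.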

How the data were processed

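The members and lists were chosen with earlier results of these data known. Per the labels' protocols, poly(A) RNA was fragmented, enriched with an m6A antibody (RIP) or left as input, and second strands were made with dUTP. The submitters' processing notes name Trimmomatic, HISAT2 and deepTools. For the peak caller, differential test, site predictor and genome build no name was found in the labels or file headers.

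Per the file headers, the deposited lists hold a prediction score and a class per candidate adenosine. The authors' comparison tables hold, per peak, a p-value and an adjusted p-value, a fold (a ratio of the first region over the second), its log2 value and a length without introns, which is at most the span. The FPKM values were made by the authors, and deposited for the 9 input libraries. Repeated lines were counted once, at the highest combined score, whose lowest values per class were 0.557 (low confidence), 0.584 (moderate confidence), 0.62 (high confidence) and 0.676 (very high confidence). Candidates were assigned to members by the spans of the peaks that the authors compared. Candidates of a listed peak that reaches past those spans were left out beyond them. Totals over all candidates and all positions were not limited in this way. Starts of peaks are printed counting from 1, and positions as the lists number them.

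Whole fragments were recovered from the FPKM steps (17604 of 17604 genes above 0 in at least 2 columns came out whole within 0.02). The steps were tested on simulated data. No test between regions was made here, since no table ties a library to a region, and Dixon's test was used to mark single input columns set apart from the other 8. Names follow the fixed rule: every member, and the 3 genes most like METTL3. As METTL3 had no row, METTL14 was used instead, chosen after the data were seen, as was the 400-base window. Alternatives were the call threshold, centred folds, stricter classes, a 50% overlap, a pseudocount of 0.1 in place of 1, percentiles among genes with a mean of at least 1 FPKM, and leaving out columns. Computations used numpy 2.4.6, pandas 2.3.3 and scipy 1.17.1, and plots matplotlib 3.10.9.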

Additional observations from a re-analysis of the deposited data

Results flagged for a closer look

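RBM15B had 40.0 FPKM in column EC2_2, and this value was set apart from the other 8 input columns by a gap of 0.587 of the whole range, above the 95% critical value of Dixon's test for 9 values. The same column had the highest sum of sperm and spermatid markers, 2298 FPKM, and the part of cell makeup in the RBM15B value was not tested. WTAP entry 4 had 0.088 FPKM in column EB1_4 and was listed at 0 in the other 8, and a single value above 0 among zeros is set apart by construction, whatever its size. Chance sets apart about 1 in 20 such groups, and 12 member entries were looked at. Dixon's test takes the 9 columns as independent, which the shared code of EB1_3 and EB1_4 leaves unknown.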

How the results depend on the processing

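At the authors' unadjusted p under 0.05, the number of called member peaks was 2 in corpus over caput, 4 in cauda over caput and 1 in cauda over corpus, in place of 0, 1 and 0. At an adjusted p under 0.1 it was 2 in cauda over caput, both in Virma, and 0 in the other comparisons. Asking for a 2-fold difference besides an adjusted p under 0.05 left the counts at 0, 1 and 0. With only high and very high confidence, the classed member positions numbered 52 in the cauda, 56 in the corpus and 52 in the caput. These were 17.0%, 16.9% and 16.5% of the member candidates, which lie inside compared peaks. Of all candidates, without that limit, 7.55%, 7.66% and 7.53% were so classed. Asking for overlap of 50% of each peak lowered the shared member peaks to 12 (cauda with caput), 13 (cauda with corpus) and 13 (corpus with caput). These were 66.7%, 72.2% and 61.9% of the member peaks, where 57.2%, 55.9% and 58.5% of all listed peaks were shared by that rule. For corpus with caput the members were thus near the share of all peaks. Centring on the median of all peaks moves all folds of a comparison by the same amount, and 1 of 56 lay close enough to 0 to change sign, that of METTL14 at 121538158 in cauda over corpus, which was -0.003 centred and 0.04 as deposited. Among the 12947 genes with a mean of at least 1 FPKM, each of the 11 member entries above 0 in more than 1 column had a lower percentile than among all genes, down to 26.4 for RBM15 (48.4 among all) and 22.7 for CBLL1 (45.8 among all). Leaving out 1 input column at a time gave another rank to 20 of 99 medians, and no rank of WTAP entry 1 or RBM15B. A pseudocount of 0.1 changed the sign of 0 of 55 correlations. The restriction to exon blocks was not run, since the tables give no blocks. No paired analysis was possible because the comparison tables carry no values per library and the input columns carry no region. The depth behind each peak is unknown, and with 1 list per region the spread between animals cannot be given.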

Other observations

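The following values were noticed after the data were seen, and the region of each code set is not known. RBM15B had 25.8, 22.9 and 23.0 FPKM in the EB columns, all below the other 6 columns, which lay between 27.2 and 40.0 FPKM, and 8.46% of 12947 genes had their EB columns below all others. METTL5 had 9.05, 5.92 and 8.54 FPKM in the EA columns, all below the other 6, which lay between 9.19 and 11.3 FPKM, and 6.75% of genes had their EA columns below all others. No other member entry had a code set apart from the remaining columns. Columns EB1_3 and EB1_4 share the code EB1 (whether they came from 1 animal is not known) and differed in RBM15, with 9.46 and 3.20 FPKM.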
